A study of Mus musculus with 12 samples.

Results

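A set of 9 genes known for expression from the copy inherited from the father, or lying beside such a gene, were followed in mouse retina: Peg10, Sgce, Mest, Copg2, Plagl1, Impact, Nap1l5, Herc3 and Slc38a4. They were chosen by gene symbol, and all of them were found among the 37991 genes of the deposited tables. The 12 libraries came from polyadenylated retinal RNA of male mice aged 8 weeks, with 3 libraries in each of 4 groups, and each library was made from a pool of retinas of several animals. The parental groups (F0) were C57BL/6J, the standard reference strain, and Cast/EiJ, a wild-derived inbred strain. The hybrids (F1) were B6xCast, with a C57BL/6J father and a Cast/EiJ mother, and CastxB6, with a Cast/EiJ father and a C57BL/6J mother. No library carried a transgene, a deletion or a treatment. The reciprocal crosses were made to tell an effect of the parent from an effect of the strain, since each allele is maternal in 1 cross and paternal in the other.

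Genomic imprinting silences a gene on the chromosome inherited from 1 of the parents. The silence follows DNA methylation set in the egg or the sperm at an imprinting control region, which is kept through development with the help of the zinc finger protein ZFP57. Most imprinted genes lie in large clusters, while the genes described here were taken as isolated or small imprinted loci and their partners. Several of them, such as Nap1l5 and Peg10, arose by retrotransposition.

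The layout of the loci bears on every value below. On the NCBI37 build, Peg10 (ENSMUSG00000092035, chromosome 6, 4697306-4710517, plus strand) and Sgce (ENSMUSG00000004631, chromosome 6, 4624350-4697204, minus strand) stand head to head, with their starts in the same promoter region. Mest (ENSMUSG00000051855, chromosome 6, 30673547-30698457, plus strand) and Copg2 (ENSMUSG00000025607, chromosome 6, 30697554-30846794, minus strand) meet tail to tail and share 904 bases of exon, 23.0% of the exon bases of Mest and 20.2% of those of Copg2. The libraries did not keep the strand, so reads from those 904 bases cannot be told apart by strand. Nap1l5 (ENSMUSG00000055430, chromosome 6, 58855228-58857120, minus strand) lies wholly within the span of Herc3 (ENSMUSG00000029804, chromosome 6, 58781459-58870392, plus strand), and no exon base of either is shared. Plagl1 (ENSMUSG00000019817) lies on chromosome 10 at 12810497-12851500 on the plus strand and Slc38a4 (ENSMUSG00000022464) on chromosome 15 at 96825254-96886387 on the minus strand.

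Promoter windows of 300 bases are printed for 3 of the genes whose alleles differed and for Copg2, the neighbour of Mest that was used from both alleles, so that their sequences can be set side by side. They were read from the NCBI37 genome, 5′ to 3′ on the strand of the gene, and run from 250 bases before the annotated start to 50 bases from it on. Capitals mark TGCCGC or its reverse complement GCGGCA, the letters that ZFP57 is known to bind when methylated. The windows are chr6:30687800-30688099 (Mest, at the start of the transcript Mest-001), chr6:58857071-58857370 (Nap1l5), chr10:12810247-12810546 (Plagl1) and chr6:30846745-30847044 (Copg2).
Mest: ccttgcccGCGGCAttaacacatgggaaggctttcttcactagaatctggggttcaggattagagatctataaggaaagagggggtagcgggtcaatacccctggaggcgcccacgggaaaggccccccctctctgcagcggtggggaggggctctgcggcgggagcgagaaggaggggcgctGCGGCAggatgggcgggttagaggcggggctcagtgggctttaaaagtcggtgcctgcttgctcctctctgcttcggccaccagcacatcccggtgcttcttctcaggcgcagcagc
Nap1l5: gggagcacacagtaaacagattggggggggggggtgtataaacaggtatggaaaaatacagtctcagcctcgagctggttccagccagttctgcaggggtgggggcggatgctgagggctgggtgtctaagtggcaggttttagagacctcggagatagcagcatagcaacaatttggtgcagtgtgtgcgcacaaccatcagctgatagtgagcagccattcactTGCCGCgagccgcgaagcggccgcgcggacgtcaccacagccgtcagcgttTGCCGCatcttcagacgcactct
Plagl1: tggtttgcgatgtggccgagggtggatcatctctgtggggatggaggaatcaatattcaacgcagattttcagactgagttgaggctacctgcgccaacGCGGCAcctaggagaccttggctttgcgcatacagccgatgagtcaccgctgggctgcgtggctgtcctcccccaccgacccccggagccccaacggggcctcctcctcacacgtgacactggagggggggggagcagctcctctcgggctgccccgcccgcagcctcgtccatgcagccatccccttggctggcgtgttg
Copg2: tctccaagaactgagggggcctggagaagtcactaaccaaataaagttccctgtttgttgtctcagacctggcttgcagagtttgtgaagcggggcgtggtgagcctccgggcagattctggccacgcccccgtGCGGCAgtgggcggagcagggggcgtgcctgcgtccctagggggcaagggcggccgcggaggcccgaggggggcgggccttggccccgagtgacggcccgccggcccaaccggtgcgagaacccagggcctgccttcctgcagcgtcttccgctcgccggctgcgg

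The motif occurred 2 times in the Mest window, 2 times in the Nap1l5 window and 1 time in each of the Plagl1 and Copg2 windows. Of 37577 windows of the same length placed at the annotated starts of the genes in the tables, 10.4% held it on either strand. The 4 windows held 17 to 25 CpG dinucleotides, against a median of 6 over all windows. Of all windows, 73.5% held fewer CpG than the Mest and Nap1l5 windows, 76.6% fewer than the Plagl1 window and 84.9% fewer than the Copg2 window. The motif itself holds a CpG, and the share of 10.4% was not matched for CpG content. The Copg2 window held the motif as well, and with 25 it had more CpG than the Mest, Nap1l5 and Plagl1 windows. A match of letters is a description of these windows and not evidence of binding.

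Depth ranged from 8158534 to 12363291 unique hits per library, where a unique hit is a read pair assigned to 1 gene and, in the hybrids, to 1 allele. No 2 libraries of a group agreed within sampling noise. Replicate 1 stood apart in 3 of the 4 groups, with a chi-square per degree of freedom against the other 2 replicates of 11.4 and 12.5 in F0 C57BL/6J, 7.18 and 8.42 in F0 Cast/EiJ, and 9.69 and 10 in B6xCast, where replicates 2 and 3 gave 3.09, 3.20 and 1.88 against each other. Several results that change without one of these libraries are given beside the values below. Male mice have only the maternal X chromosome, so hits of X-linked genes given to the paternal allele measure wrong assignment. That share was 0.468% to 0.637% in the 6 hybrid libraries, and this range is the background for every share below. Within a cross it measures reads of the maternal strain given to the paternal allele. The reverse error, which adds maternal hits to a silent allele, is measured in the other cross. Summed markers of rods, the main cell type of the retina, stood at 15600 to 17400 FPKM in the F0 libraries, and markers of retinal pigment epithelium and lens were each summed at 11.8 FPKM or less.

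In the hybrid retina, 6 of the 8 testable genes were expressed from the paternal allele: by unique hits Sgce, Plagl1, Peg10, Nap1l5 and Impact almost wholly, and Mest in part. Copg2 and Herc3 gave close to equal hits on both alleles, with a small lean to the maternal one. Slc38a4 had too few hits to be tested. Calls were made by limma at an adjusted p under 0.05, from log2(count equivalents + 1) of 13414 autosomal genes. Of all those genes 0.492% were called in either direction and 0.313% with the paternal allele higher, against 6 of the 8 tested here. Count equivalents are MMSEQ's estimates of read counts, scaled by the authors within each library or allele, and the median log2 difference between the maternal and the paternal allele was -5.14 over the 8 genes and -0.00 over all genes tested.

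**Figure D1:**
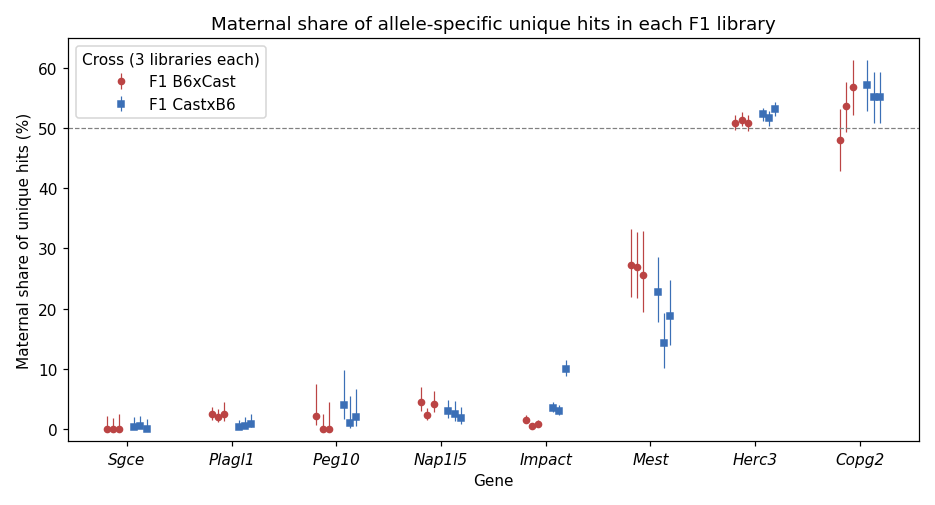
Maternal share of unique hits (y axis, percent) for 8 genes (x axis) in each F1 library. Circles are the 3 B6xCast libraries and squares the 3 CastxB6 libraries, bars are 95% Wilson intervals, and the dashed line marks 50%. Sgce, Plagl1, Peg10, Nap1l5 and Impact lie at or below 10%, Mest at 14.2% to 27.2%, and Herc3 and Copg2 at 48.0% to 57.1%.

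Sgce encodes epsilon-sarcoglycan, a membrane protein of the dystrophin-associated complex whose paternal copy is mutated in myoclonus-dystonia. Its paternal allele had 177, 215 and 156 hits in the B6xCast libraries and 295, 252 and 225 in the CastxB6 libraries. Its maternal allele had 0 hits in each B6xCast library and 1, 1 and 0 in the CastxB6 libraries. Sgce therefore had the lowest maternal share of the 8 genes, and it did not rise above the X-linked background in any library. The 0 of 548 hits in B6xCast allow a maternal share of up to 0.547%, and the 2 of 774 in CastxB6 give 0.258% (95% Wilson interval 0.0709% to 0.937%). The log2 difference between the alleles was -7.28 (SE 0.13, adjusted p = 3.42e-16), ranked at place 2 of all genes by p. Because the maternal allele is close to 0, that value moves with the method, from -9.45 to -5.92 over 18 alternatives, and is no bound on the ratio.

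Peg10, a gene derived from a retrotransposon that is needed for the placenta, was the least expressed of the testable genes. Its paternal allele had 92, 148 and 82 hits in B6xCast and 96, 99 and 104 in CastxB6, against 2, 0 and 0 and then 4, 1 and 2 on the maternal allele. The mean maternal share was 1.5% ± 1.52 (SD, n = 6), and every library had fewer than 5 maternal hits. The log2 difference was -6.22 (SE 0.32, adjusted p = 5.84e-10). Peg10 and Sgce, which share a promoter region, were thus both called paternal.

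Nap1l5, a retrogene of the nucleosome assembly protein family, gave more maternal hits than Sgce. The paternal allele had 422, 745 and 504 hits in B6xCast and 465, 387 and 387 in CastxB6, and the maternal allele 20, 17 and 22, then 14, 10 and 7. Its maternal share was 3.03% ± 1.10 (SD, n = 6), from 1.78% to 4.52%, above the X-linked background in all 6 libraries. The log2 difference was -5.11 (SE 0.13, adjusted p = 3.05e-14).

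Herc3, the host gene of Nap1l5, encodes a large ubiquitin ligase. The maternal allele had 3379, 3937 and 2788 hits in B6xCast and 3866, 3576 and 3661 in CastxB6, and the paternal allele 3257, 3716 and 2687, then 3531, 3354 and 3220. All 6 libraries had more maternal than paternal hits, by a small margin in each, and the maternal share was 51.7% ± 0.88 (SD, n = 6). Over all genes tested, 0.544% had a maternal share above 50% in all 6 libraries, and the median gene had a mean maternal share of 49.97%. The log2 difference of 0.10 (SE 0.04) was not called by limma (adjusted p = 0.517). By edgeR on unique hits it was 0.10 with an adjusted p of 3.21e-06, a direction and test in which 0.149% of genes were called. Its adjusted p ran from 3.21e-06 to 0.801 over 18 alternatives, with edgeR the only alternative among these that called it.

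Mest encodes a protein of the alpha/beta-hydrolase fold and is studied for its role in growth and fat. Its paternal allele had 174, 185 and 119 hits in B6xCast and 177, 194 and 164 in CastxB6, and its maternal allele 65, 68 and 41, then 52, 32 and 38. The maternal share of 22.6% ± 5.18 (SD, n = 6) stood above that of the 5 genes with almost no maternal hits in every library. It was 26.6% ± 0.83 (SD, n = 3) in B6xCast and 18.6% ± 4.28 (SD, n = 3) in CastxB6, and the libraries of the crosses did not overlap in this measure. The same was true of 59.6% of all genes tested and of 4 of the 8 genes here, the others being Plagl1, Impact and Herc3. In count equivalents the crosses of Mest overlapped, at 17.7%, 10.1% and 9.46% against 6.58%, 4.33% and 14.3%, and of the 8 genes only Impact did not overlap, against 55.9% of all genes tested. A two-sided exact permutation test of the difference in unique hits gave p = 0.1, the smallest that 3 against 3 libraries allow, and 0.2 adjusted over the 8 genes. The paternal allele was called higher, with a log2 difference of -3.24 (SE 0.21, adjusted p = 2.12e-08).

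The size of the maternal remainder of Mest depended on the measure. In count equivalents the maternal share averaged 10.4% ± 4.91 (SD, n = 6) and ran from 4.33% to 17.7%, lower than the share of unique hits in all 6 libraries. In FPKM, the maternal allele stood at 9.62 ± 0.83 (SD, n = 3) and the paternal at 29.5 ± 0.87 (SD, n = 3) in B6xCast, and at 6.30 ± 1.07 and 36 ± 2.02 (SD, n = 3) in CastxB6. The log2 difference was -1.79 by edgeR on unique hits and -2.07 in the deposited log expression, against -3.24 in count equivalents, and all of them were called. The annotation gives Mest several transcripts that start upstream of Mest-001, the earliest at 30673547, and the tables are summed per gene, so the alleles of single transcripts were not analysed here.

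Copg2 encodes a gamma subunit of the COPI coat of Golgi vesicles. The maternal allele had 170, 297 and 254 hits in B6xCast and 296, 292 and 293 in CastxB6, and the paternal allele 184, 257 and 193, then 222, 237 and 238. The maternal allele was the higher in 5 of 6 libraries, and the exception was B6xCast replicate 1 at 48.0%. The mean maternal share was 54.3% ± 3.34 (SD, n = 6). Limma gave a log2 difference of 0.21 (SE 0.07) that was not called (adjusted p = 0.411). By edgeR on unique hits it was 0.26 with an adjusted p of 0.00127, and over 18 alternatives the adjusted p ran from 0.00127 to 1, with edgeR alone making the call. A unique hit is assigned to 1 gene, so read pairs that match both Copg2 and Mest in their shared exon stretch are not among the hits. Their part in the count equivalents was not tested.

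Plagl1 encodes a zinc finger transcription factor whose overexpression is linked to transient neonatal diabetes. Its paternal allele had 774, 612 and 402 hits in B6xCast and 383, 366 and 359 in CastxB6. Its maternal allele had 19, 12 and 10 hits in B6xCast and 1, 2 and 3 in CastxB6. The maternal share was thus higher in each B6xCast library (1.92% to 2.43%) than in any CastxB6 library (0.26% to 0.829%), and the exact permutation test between the crosses again gave the smallest p it allows, 0.1 (0.2 adjusted over the 8 genes). The log2 difference between the alleles was -5.18 (SE 0.29, adjusted p = 1.69e-09). In count equivalents the maternal share was 4.12%, 7.08% and 2.58% in B6xCast and 0.656%, 1.22% and 3.90% in CastxB6, so the crosses overlapped in that measure. Its mean of 3.26% ± 2.33 (SD, n = 6) was above the 1.40% ± 0.97 of the unique hits.

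Impact (ENSMUSG00000024423, chromosome 18, 13130761-13151457, plus strand) encodes a protein that restrains the stress kinase GCN2 by competing for its activator GCN1. Its paternal allele had 1244, 1940 and 1256 hits in B6xCast and 1856, 1735 and 1569 in CastxB6. Its maternal allele had 18, 9 and 10 hits in B6xCast and 68, 54 and 175 in CastxB6. The C57BL/6J allele, when maternal, thus kept 3.53%, 3.02% and 10% of the hits, and the Cast/EiJ allele, when maternal, 1.43%, 0.462% and 0.79%. Over the 6 hybrid libraries the X-linked background was 0.468% to 0.637%. CastxB6 replicate 3 stood apart, with a Wilson interval of 8.71% to 11.5% that met no other library's. In the same library the maternal share of unique hits was also the highest of its cross for Plagl1 (0.829%) and Herc3 (53.2%), and it was the lowest of its cross for Nap1l5 (1.78%) and Sgce (0 hits). In count equivalents Plagl1 (3.90%), Mest (14.3%) and Herc3 (52.8%) were highest of their cross in it, and Nap1l5 (1.69%), Sgce (0.355%) and Copg2 (53.9%) were lowest. The log2 difference between the alleles was -5.64 (SE 0.23, adjusted p = 2.04e-11), and without that library Impact was still called.

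Slc38a4, an amino acid transporter known for paternal expression in the placenta, was near 0 in every library. It had 11 allele-specific hits over the 6 hybrid libraries, 3 maternal and 8 paternal, and 0 to 3 hits in each F0 library. No parental difference was detectable at this depth, since 3 of 11 hits give a maternal share of 27.3% with a Wilson interval of 9.75% to 56.6%.

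The order of the mean maternal shares was Sgce, Plagl1, Peg10, Nap1l5, Impact, Mest, Herc3 and Copg2. Without CastxB6 replicate 3 the mean of Impact was 1.85%, below that of Nap1l5. Of the 7 neighbouring pairs in the order over all 6 libraries, Impact and Mest differed by 19.4 percentage points and Mest and Herc3 by 29.2. Both differences had the same direction in 6 of 6 libraries. An exact sign-flip permutation test (two-sided, paired by library) gave p = 0.0312 for each of these, the smallest that 6 libraries allow, and 0.109 adjusted over the 7 pairs. The other 5 pairs had p from 0.0625 to 0.938 and differed by 0.106 to 2.60 percentage points. With only Impact and Mest and Mest and Herc3 at that floor, their adjusted p could not fall below 0.109, so the adjustment cannot decide them. The share of Mest was 14.2% to 27.2%, apart from that of Impact (at most 10%) and of Herc3 (50.9% to 53.2%). By the same exact test the pair of Sgce and Plagl1 had p = 0.0625 (0.146 adjusted) with the order kept in 5 of 6 libraries, and that of Herc3 and Copg2 p = 0.125 (0.175 adjusted), so the place of Sgce at the low end and of Copg2 at the high end was not resolved either.

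**Figure D2:**
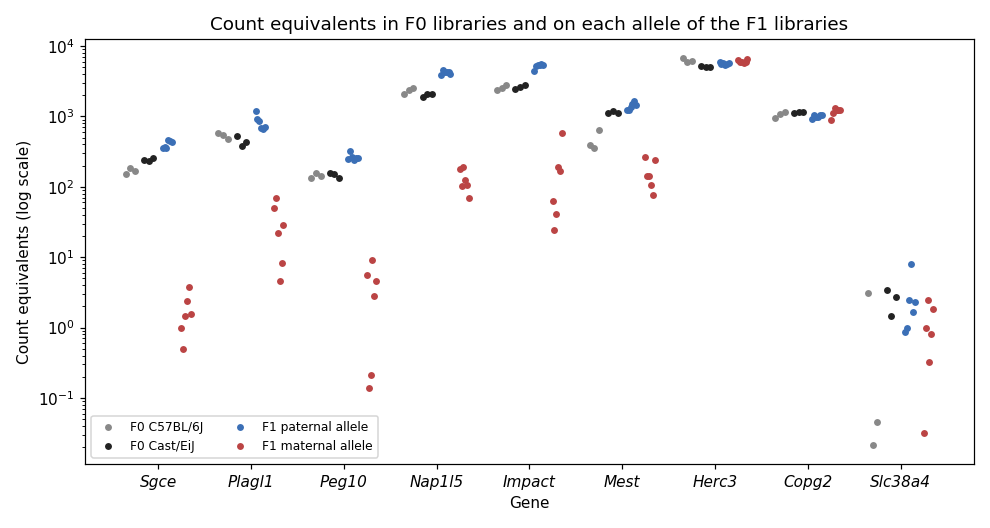
Count equivalents (log y axis) of the 9 genes (x axis) in each library. Grey and black points are F0 C57BL/6J and F0 Cast/EiJ libraries (3 each), blue and red points the paternal and maternal alleles of the 6 F1 libraries. The paternal points of Nap1l5 (3880 to 4610) lie above its F0 points (1890 to 2540), while the Herc3 alleles lie at the level of its F0 libraries.

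The paternal alleles of the 6 called genes stood at 1.35 to 2.77 times the F0 level of the same strain in count equivalents, and at 1.35 to 2.12 times in FPKM. Each allele column of a hybrid library was scaled to the same total as an F0 library, so a gene used from 1 allele only reaches about 2 times its F0 level in the column of that allele. For Impact the paternal count equivalents were 1.96 times the F0 C57BL/6J mean in B6xCast and 2.07 times the F0 Cast/EiJ mean in CastxB6. For Nap1l5 the ratios were 1.83 and 2.07, for Peg10 1.93 and 1.70, for Sgce 2.16 and 1.84, and for Plagl1 1.83 and 1.52. Mest stood at 2.77 and 1.35, but its count equivalents per FPKM differed between the F0 strains, and in FPKM its ratios were 1.42 and 1.35. The ratios of Copg2 were 0.927 and 0.907 and those of Herc3 0.905 and 1.10, near the single share of a gene used from both alleles. All libraries shared a lane and the F1 libraries were sequenced on another one as well, so an effect of that added lane and of generation cannot be told apart in these ratios.

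Levels between genes were compared in FPKM, which allows for length, over the 6 F0 libraries. Herc3 was highest with a median of 87.0 FPKM, followed by Nap1l5 at 60.6, Impact at 39.0, Mest at 24.0, Copg2 at 16.5, Sgce at 8.05, Plagl1 at 6.33 and Peg10 at 1.22. Slc38a4 was last, at a median of 0.028 FPKM and at most 0.0863. Each gene's range lay clear of the next in this order except for Sgce (5.64 to 8.71) and Plagl1 (4.68 to 7.57), which overlapped.

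Between the alleles of the 2 strains, averaged over both crosses, 2 of the 8 genes were called, and both had a lower Cast/EiJ allele. In the same test 47% of all genes were called (55.8% by edgeR on unique hits, which called 3 of the 8), a background against which 8 genes are a small count. Because the term averages over the parents, a strain call in a silenced gene also means that the parental ratio differed between the crosses. For Impact the Cast/EiJ allele was lower by a log2 difference of -1.295 (SE 0.23, adjusted p = 2.04e-04), and it was called under all 18 alternatives, between -1.497 and -1.007, the last of these without CastxB6 replicate 3. The maternal count equivalents behind it were 62.7, 24.0 and 41.4 for the Cast/EiJ allele in B6xCast and 192, 168 and 577 for the C57BL/6J allele in CastxB6. The paternal count equivalents were close, at 4990 ± 477 (SD, n = 3) for the C57BL/6J allele and 5400 ± 133 (SD, n = 3) for the Cast/EiJ allele.

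For Peg10 the strain term was -0.84 (SE 0.32, adjusted p = 0.0406), but it rested on 0.14 to 9.23 maternal count equivalents per library, and 11 of 18 alternatives did not call it (adjusted p from 1.48e-04 to 0.386). The call was lost without B6xCast replicate 2 (-0.57, adjusted p = 0.187) or replicate 3 (-0.66, 0.143), and without CastxB6 replicate 1 (-0.64, 0.161) or replicate 3 (-0.87, 0.0739). Without B6xCast replicate 1 the term was larger, at -1.298 (adjusted p = 1.48e-04). Plagl1 was not called, at 0.72 (SE 0.29, adjusted p = 0.0506), and its direction depended on the measure, since on the deposited log expression the term was -0.10 (adjusted p = 0.558). Of 18 alternatives 7 called it, with a higher Cast/EiJ allele in each (adjusted p from 3.96e-04 to 0.558 over all 18), among them the fits without B6xCast replicate 3 (0.90, 0.0222) and without CastxB6 replicate 3 (1.05, 0.00114). Mest at 0.37 (adjusted p = 0.166) was called under 3 of 18 alternatives, all with a higher Cast/EiJ allele (adjusted p from 8.13e-05 to 0.554), 1 of them the fit without CastxB6 replicate 3 (0.63, 0.00709). Its term fell to 0.16 without CastxB6 replicate 2 and to 0.21 without B6xCast replicate 1. Nap1l5 at 0.31 (adjusted p = 0.0664) was called without B6xCast replicate 2 (0.48, 0.00231) or CastxB6 replicate 1 (0.39, 0.0386), and Sgce at -0.26 (adjusted p = 0.121) without CastxB6 replicate 3 (-0.36, 0.0371). Over all 18 alternatives the adjusted p ran from 0.00231 to 0.436 for Nap1l5 and from 0.0371 to 0.9 for Sgce, whose term was 0.16 (adjusted p = 0.196) on the log expression. Herc3 at -0.01 (adjusted p = 0.766) and Copg2 at -0.05 (adjusted p = 0.612) were called under none of the 18.

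Between the F0 strains, Mest and Sgce were higher and Herc3 was lower in Cast/EiJ retina, and the other 5 testable genes were not called. In this comparison 33.8% of 14452 autosomal genes were called, so 3 of 8 is near the share of all genes. Of all calls 50.9% were higher in Cast/EiJ, or 36.6% with TMM factors on top, and the 3 called genes kept their directions under that scaling. Count equivalents of Sgce were 152, 183 and 168 in F0 C57BL/6J and 243, 232 and 252 in F0 Cast/EiJ, a log2 difference of 0.53 (SE 0.11, adjusted p = 0.0071). Those of Herc3 were 6700, 5960 and 6190 against 5190, 5010 and 5090, a log2 difference of -0.30 (SE 0.07, adjusted p = 0.00875). Neither gene's strains overlapped, as in 48% of all genes tested. On the deposited log expression, where 28.1% of genes were called, neither was (adjusted p = 0.12 for Sgce and 0.0618 for Herc3), although the directions were kept. Their adjusted p over 15 alternatives ran from 0.00557 to 0.12 and from 0.0011 to 0.0618.

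**Figure D3:**
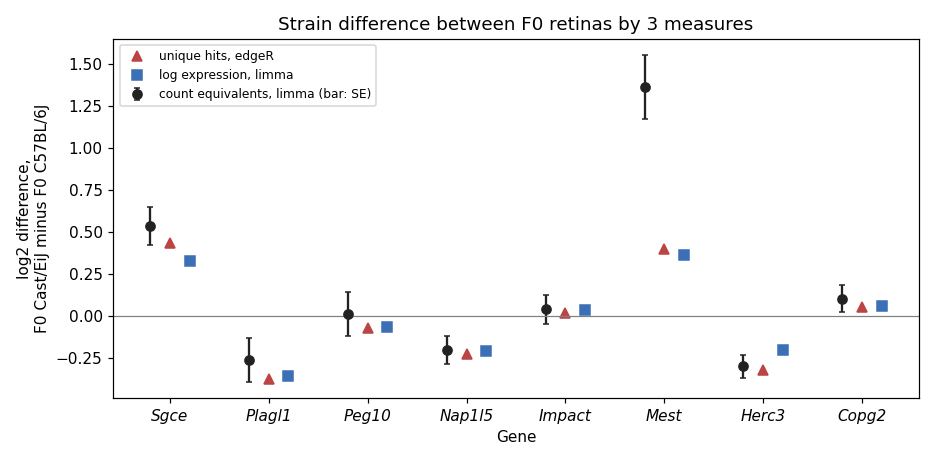
Log2 difference of F0 retinas, Cast/EiJ minus C57BL/6J (y axis), for 8 genes (x axis), by count equivalents (circles, bars are SE), unique hits (triangles) and log expression (squares), with 3 libraries per strain. For Mest the circle stands at 1.36 while the triangle and the square stand at 0.40 and 0.36.

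Mest showed the widest gap between measures. Its count equivalents were 389, 353 and 633 in F0 C57BL/6J and 1120, 1190 and 1110 in F0 Cast/EiJ, a log2 difference of 1.36 (SE 0.19, adjusted p = 7.06e-04). Its unique hits were 560, 578 and 567 against 540, 588 and 691, and its FPKM 20.3, 19.9 and 22.0 against 26.0, 27.7 and 26.1. The strains thus overlapped in raw unique hits and stood apart in the other 2 measures, as 45.8% of all genes did in FPKM. The log2 difference was 0.40 by edgeR on unique hits (adjusted p = 0.00233, in a test that called 37.1% of genes) and 0.36 on the log expression (adjusted p = 0.0103), and it was called under all 15 alternatives (adjusted p from 1.08e-05 to 0.0405). An FPKM of 1 for Mest corresponded to 17.8 to 28.7 count equivalents in F0 C57BL/6J and to 42.5 to 43.1 in F0 Cast/EiJ, while for Impact it was 64.6 to 65.4 in both strains. The direction held in each measure, and the size did not.

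Of the genes not called between the F0 strains, Plagl1 differed by -0.26 (SE 0.13, adjusted p = 0.155), Nap1l5 by -0.20 (SE 0.08, adjusted p = 0.0956), Copg2 by 0.10 (SE 0.08, adjusted p = 0.351), Impact by 0.04 (SE 0.09, adjusted p = 0.767) and Peg10 by 0.01 (SE 0.13, adjusted p = 0.961). Nap1l5 was called lower in Cast/EiJ under 5 of 15 alternatives, with an adjusted p from 0.0143 to 0.293. Among them was the fit with replicate numbers as a block. It was also called without F0 C57BL/6J replicate 1 (-0.27, 0.0306) and without replicate 1 of both strains (-0.22, 0.0399). Plagl1 was called lower without F0 Cast/EiJ replicate 1 (-0.39, 0.0358), and its adjusted p ran from 0.0358 to 0.449. Count equivalents of Impact were 2330, 2520 and 2770 in F0 C57BL/6J and 2420, 2570 and 2830 in F0 Cast/EiJ, so its F0 strains overlapped while its maternal alleles, which are of different strains, did not overlap between the crosses in count equivalents, as in 43.6% of all genes tested. Beside all F0 values, summed markers of retinal pigment epithelium were 8.87 to 10.9 FPKM in C57BL/6J and 2.59 to 3.79 in Cast/EiJ, those of blood 76.0 to 115 and 35.5 to 58.0, markers of cones 402 to 476 and 294 to 353, and markers of ganglion cells 207 to 230 and 160 to 178. Markers of rods, at 15600 to 15700 in C57BL/6J and 16600 to 17400 in Cast/EiJ, and of bipolar cells, at 203 to 229 and 257 to 268, stood apart the other way, and those of the other 4 types overlapped. Their part in the F0 differences was not tested, and in bulk tissue fewer cells of a type and less RNA per cell cannot be told apart.

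Between the reciprocal crosses, with the count equivalents of both alleles summed, none of the 8 genes was called by limma, against 6 of 14967 genes (0.0401%) at large. None of those 6 calls was higher in CastxB6, and with TMM factors on top 1 of 8 was. The largest differences, CastxB6 minus B6xCast, were -0.54 for Plagl1 (SE 0.12) and 0.31 for Sgce (SE 0.06), both with an adjusted p of 0.917. Their unadjusted p of 0.00315 and 0.00169 were 2 of 667 below 0.05 over all genes, Impact and Mest being among those as well. DESeq2 on unique hits called Plagl1 (-0.82, adjusted p = 1.78e-04) and Nap1l5 (-0.55, adjusted p = 0.0297) lower in CastxB6, and edgeR called neither (0.242 and 0.437). The adjusted p over 14 alternatives ran from 1.78e-04 to 1 for Plagl1 and from 0.0297 to 1 for Nap1l5. In count equivalents Nap1l5 differed by -0.04 (SE 0.06).

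**Figure D4:**
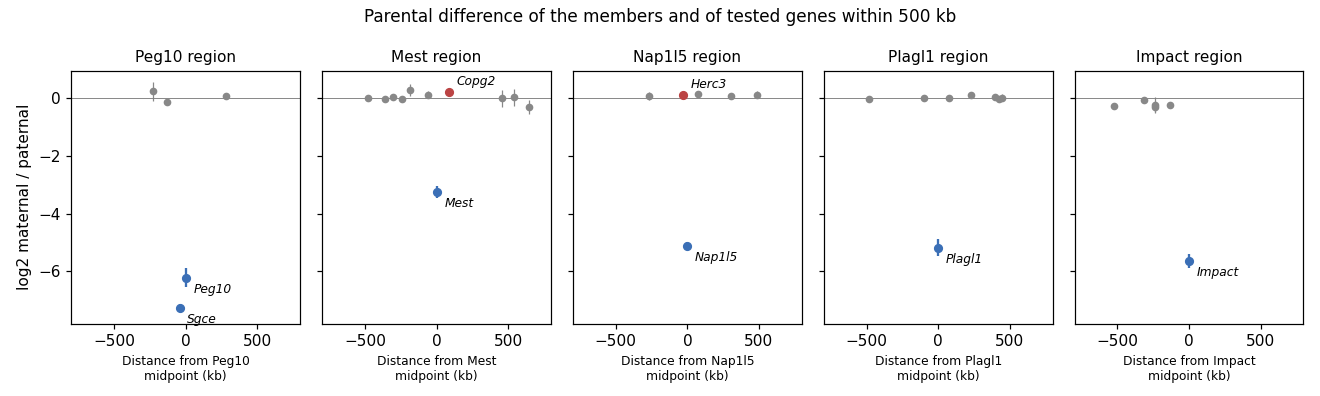
Log2 difference between maternal and paternal allele (y axis) against the distance of gene midpoints in kb (x axis) around Peg10, Mest, Nap1l5, Plagl1 and Impact. Blue points are the paternally expressed genes, red points Copg2 and Herc3, grey points the other tested genes within 500 kb, and bars are SE. The blue points lie between -7.28 and -3.24 and every other point between -0.31 and 0.29.

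No tested neighbour was called by limma. Within 500 kb there were 3 of them around Peg10 and Sgce, 9 around Mest and Copg2, 4 around Nap1l5 and Herc3, 7 around Plagl1, 5 around Impact and 4 around Slc38a4, and the value farthest from 0 was that of Fam113b near Slc38a4 (1.01, SE 0.25, adjusted p = 0.118). EdgeR on unique hits called 2 of these neighbours, in a test that called 0.455% of all genes. Osbpl1a, an oxysterol-binding protein gene 30.4 kb from Impact, leaned to the paternal allele with a log2 difference of -0.29 by edgeR (adjusted p = 6.95e-05) and -0.24 by limma (SE 0.07, adjusted p = 0.372). Ppp1r9a, a neuronal actin-binding protein gene 142 kb from Peg10, leaned to the maternal allele with 0.09 by edgeR (adjusted p = 0.0424) and 0.10 by limma (SE 0.04, adjusted p = 0.577). The 5 tested neighbours of Impact all had values below 0, from -0.30 to -0.04. Those of Nap1l5 and Herc3, 4 in number, all had values above 0, from 0.07 to 0.14. How often the neighbours of a gene share a sign over all genes was not computed.

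Genes that share a complex, a pathway or a family with these 9 gave no parental call unless they are known to be imprinted themselves. None of the 3 tested genes of the sarcoglycan and dystroglycan complex of Sgce, the 8 COPI coatomer genes beside Copg2, the 6 genes of the GCN2 pathway that Impact restrains, the 2 nucleosome assembly protein genes, the 4 HERC genes or the 7 SLC38 transporters was called by parent of origin. Their median log2 differences lay between -0.02 and 0.03. Genes that keep imprints, such as Zfp57 (-0.07) and Trim28 (-0.00), its corepressor, gave no call among 7 tested.

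Between the F0 strains some of these genes differed, in the test that called 33.8% of all genes. Over the 7 lists, 14 of 37 tested genes (37.8%) were called. In the COPI list Copb1 rose in Cast/EiJ by 0.48 (SE 0.09, adjusted p = 0.00282) while Copa (-0.32, adjusted p = 0.00362) and Copg (-0.36, adjusted p = 0.0149) fell. In the GCN2 list 3 of 6 were higher in Cast/EiJ, namely Eif2ak3 (0.37, adjusted p = 0.0119), Eif2s1 (0.28, adjusted p = 0.0485) and Gcn1l1 (0.19, adjusted p = 0.046), although the mean FPKM of Gcn1l1 was 13 in both strains. Trim28 (0.47, adjusted p = 0.00136) and Zfp445 (0.44, adjusted p = 0.00221), another zinc finger protein that keeps imprints, were higher in Cast/EiJ, 2 of the 7 tested. The HERC list had 2 genes higher and 1 lower, the SLC38 list 1 each way, and the nucleosome assembly list 1 lower. The F0 medians of these 7 lists lay between -0.16 and 0.17, against 0.03 over all genes.

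Among other imprinted genes, 8 of 8 tested genes of the network linked to PLAGL1 were called, each with an adjusted p of 5.53e-04 or less. The paternal allele was higher for Peg3 (-10.19), Ndn (-6.18) and the growth factor gene Igf2 (-1.86, SE 0.14), and the maternal allele for the noncoding RNA gene Meg3 (8.18), the cell cycle inhibitor gene Cdkn1c (4.07, SE 0.21), Grb10 (0.80, SE 0.06), Igf2r (0.46, SE 0.06) and Gnas (0.33, SE 0.04). By edgeR on unique hits Gnas was called the other way (-0.98, adjusted p = 1.39e-07), so its direction depended on the measure. That network was drawn up from imprinted genes, so its calls are no independent evidence. Of other isolated paternally expressed genes, 5 of 6 tested were called paternal: Zdbf2 (-7.65), Rasgrf1 (-6.83), Zrsr1 (-4.41), Mcts2 (-3.31) and Inpp5f (-1.27). Sfmbt2 was not (0.13, SE 0.12, adjusted p = 1). Mest at -3.24 thus stood between Mcts2 and Inpp5f, while Peg10 and Sgce stood with Rasgrf1.

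The genes whose allele values were most like those of the 6 called genes over the 12 allele columns were themselves genes with a parental difference, as a description. By Pearson's r, Sgce was closest to Gm16574 (0.99), Rasgrf1 (0.99) and Snrpn (0.99), Nap1l5 to Snrpn (0.996), Gm16574 (0.99) and Usp29 (0.99), and Peg10 to Zrsr1 (0.97), Airn (0.97) and Rasgrf1 (0.96). Mest was closest to Ndn, Mkrn3 and Airn (0.97 each), Impact to Airn (0.97), Mkrn3 (0.97) and Zrsr1 (0.96), and Plagl1 to Peg3 (0.97), Ndn (0.96) and Zdbf2 (0.95). The 12 values come from 6 libraries, and the split into a high paternal and a low maternal set carries most of each r.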

How the data were processed

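The authors prepared unstranded polyadenylated libraries and sequenced them as read pairs. Per the labels, reads were trimmed with Trim Galore 0.2.6 and aligned with Bowtie 0.12.9 (build mm9, equal to NCBI37), and the authors estimated expression with MMSEQ on strain-specific or hybrid transcriptomes of Ensembl. The authors deposited a normalized signal (count equivalents), the natural log of expression, whose exponential is FPKM, and unique hits, which are a raw count, with a column per F0 library and per F1 allele. Columns of the authors' own comparisons (model probabilities and Bayes factors) and 54 further value columns were not used. Because the count equivalents were already normalized, limma 3.58.1 with a variance trend was run on log2(count equivalents + 1). Fold changes on that scale understate low genes. Allele tests held both alleles of 6 libraries and the F0 libraries, with the library as block (consensus correlation 0.1354), over autosomal genes that averaged 10 or more unique hits. F0 and cross tests took genes with at least 10 count equivalents in 3 libraries. EdgeR 4.0.16 and DESeq2 1.42.0 (R 4.3.3) on unique hits, other pseudocounts, filters, scalings and left-out libraries were alternatives. P-values were adjusted over all genes by Benjamini-Hochberg, with calls under 0.05. Intervals (95% Wilson) and the limit for a count of 0 (3 counts) cover counting error only. Replicates were separate pools of retinas. The fitting steps were tested on simulated data. Named genes are the 9 genes, genes within 500 kb or in fixed lists with a parental call, and for each called gene the 3 most correlated genes. Some list genes and edgeR-called neighbours were named after their values were seen. The genes and lists were chosen with earlier results of these data known. Some promoter sequences are not reported here.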

Additional observations from a re-analysis of the deposited data

Results flagged for a closer look

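The parental bias of 2 of the 8 tested genes differed between the crosses by the test of the strain term, which called 47% of all genes. For Impact the log2 difference between the Cast/EiJ and the C57BL/6J allele was -1.295 (adjusted p = 2.04e-04), with the silent C57BL/6J allele at 3.02% to 10% of hits in CastxB6 and the silent Cast/EiJ allele at 0.462% to 1.43% in B6xCast. For Peg10 it was -0.84 (adjusted p = 0.0406), with 0 to 4 maternal hits per library, and 11 of 18 alternatives did not call it. Single values were not screened for outlying samples in groups of 3 libraries, in 3 of which replicate 1 stood apart over all genes.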

How the results depend on the processing

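The 6 parent-of-origin calls among the 9 genes held their direction and call under all 18 alternatives, including pseudocounts of 0.5 and 5, and with each F1 library left out. No called result among the 9 genes changed sign; among the genes of the lists, Gnas did (0.33, and -0.98 by edgeR on unique hits). Over all genes DESeq2 gave 38 parental calls (26.3% of them maternal, against 36.4% of 66), 36 of them shared. The 2 strain calls among the 9 genes became 1 with a pseudocount of 5, no filter on unique hits, F1 libraries only, no library block or no variance trend, and 2 to 4 with 1 library left out. Between the F0 strains, no filter gave 3161 calls in place of 4887, and the log expression 1 of the 9 genes in place of 3. Between the crosses, in place of 6 calls over all genes, DESeq2 gave 12 (2 of the 9 genes), no filter 24, and leaving out 1 library 5 to 12, the last without B6xCast replicate 1. The causes were not tested. Without replicate 1 of both F0 strains, 4626 genes and 4 of the 9 were called. That fit, the fits on log expression for F0 and crosses and the fit without a variance trend were chosen after seeing the data.

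With replicate numbers as a block, 54 genes were called by parent of origin, 6404 by allelic strain, 6376 between F0 strains and 4 between crosses, and 6, 2, 4 and 0 of the 9 genes. Deviations of same-numbered libraries correlated at 0.326, 0.03 and 0.137 between the F0 groups and at -0.103, -0.118 and -0.0559 between the F1 groups, not every library did so best with its own number, and the numbers were not taken as pairs. The median maternal share of the 8 genes was 3.12%, 3.20% in count equivalents, and 2.56% to 3.47% with 1 library left out. Low maternal counts limit the ratios of Sgce and Peg10, and 11 hits leave Slc38a4 untested.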
